A study of Mus musculus with 4 samples.

Results

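The protocadherin genes were followed in MC38 cells, a mouse colon adenocarcinoma line that the labels call epithelial, after a single X-ray dose. Protein-coding genes whose GENCODE M21 symbol starts with Pcdh and goes on with a number, a, b or g were taken as members. The rule finds 69 genes in the annotation, of which 46 have a row among the 26561 genes of the count table. These are 2 alpha, 16 beta and 17 gamma genes of the clustered family and 11 nonclustered genes. The other 23, which are 12 alpha, 6 beta and 4 gamma genes and Pcdh20, were not analysed here. The irradiated (IR) group holds 2 RNA-seq libraries of wild-type (WT) cells taken 60 h after 30 Gy, and the unirradiated (nonIR) group holds 2 libraries of WT cells that received no dose. All 4 libraries are of the same line, and the labels name no other agent.

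Protocadherins are cell-surface adhesion proteins of the cadherin superfamily, each with a row of extracellular cadherin repeats. The clustered genes lie side by side in alpha, beta and gamma arrays. In neurons single promoters of the arrays are switched on in different combinations from cell to cell, through CTCF and cohesin loops to shared enhancers, and the resulting surface code lets a neuron's branches recognise one another. Each alpha or gamma variable exon is spliced to constant exons shared by its array, whereas a beta gene is a single coding exon with none. Nonclustered protocadherins are scattered genes with their own promoters, and they serve cell sorting, axon growth and, for Pcdh15, hearing.

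Total counts per library ranged from 26059171 to 29881492. The IR libraries detected 22713 and 22663 genes, against 19413 and 19531 detected in the nonIR libraries. The sources used here give no harvest time or density for the nonIR cells, so effects of either cannot be told apart from those of irradiation. Nothing says that the libraries of a group were separate cultures. The spread between libraries that the p-values are set against may therefore be technical. In bulk RNA, fewer cells expressing a gene and less RNA per cell cannot be told apart. Of the epithelial markers, Epcam had 0 and 1 counts in the IR libraries and 0 and 0 in the nonIR libraries, while Cdh1, which encodes E-cadherin, averaged 70.4 ± 3.72 CPM in IR and 35.4 ± 1.24 CPM in nonIR cells (SD, n = 2 each; CPM are counts per 1000000 counts of the scaled library). Of the 5 mesenchymal markers, Fn1, Zeb1 and Twist1 rose, Vim fell and Cdh2 was not called. Fn1, the fibronectin gene, averaged 1306 ± 12.9 CPM in IR and 166 ± 5.49 CPM in nonIR cells, and Vim, an intermediate filament gene, 3570 ± 16.7 CPM in IR and 4280 ± 26.5 CPM in nonIR cells. Of the 7 epithelial markers with a row, 3 were high enough to test, so the epithelial label has thin backing in these counts. Of the marker lists of other cell types, the immune genes summed to 26 and 23 counts in the IR libraries and 10 and 6 in the nonIR libraries, and the endothelial genes to 160 and 151 counts in the IR libraries, against 71 and 52 in the nonIR libraries. The fibroblast list summed to 31787 and 28920 counts in the IR libraries, against 23505 and 24706 in the nonIR libraries, with all 4 members called higher. For the neuronal list the sums were 11796 and 10996 counts in the IR libraries and 11584 and 12190 in the nonIR libraries. Tubb3 was the highest of its 8 genes, of which 7 and 7 were detected in the IR libraries and 3 and 4 in the nonIR libraries. Of the 3 tested neuronal genes, 1 was called higher and 2 were not called. Over all 15298 genes tested, 30.4% were called higher in IR and 30.3% lower. The part of other cells in any result was not tested.

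Irradiated cells carried more Pcdh18, Pcdh1, Pcdh15 and Pcdh12 messenger RNA and less Pcdh19, while Pcdh7 did not pass the test. These 6 are the nonclustered genes that were high enough to be tested, and 4 of them rose and 1 fell at a Benjamini-Hochberg adjusted p under 0.05 in edgeR's quasi-likelihood test. Over all 15298 genes tested, 30.4% were called higher in IR and 30.3% lower, 60.7% in all. Pcdh12 and Pcdh15 passed the filter on low counts through the IR libraries alone, so their direction was fixed by being tested, and the count of 4 that rose is no support for a direction of the family. The 4 genes that passed through both groups are Pcdh18 and Pcdh1, which rose, Pcdh19, which fell, and Pcdh7. Upstream sequence is shown for Pcdh18 and Pcdh19, the nonclustered genes with the highest levels per length, which moved in opposite directions, and for Pcdh15, which was nearly silent in nonIR cells. The stretches are from RefSeq (GRCm38.p6), read on the gene's strand and trimmed to leave out annotated exons, with every CpG in capitals.
Pcdh18: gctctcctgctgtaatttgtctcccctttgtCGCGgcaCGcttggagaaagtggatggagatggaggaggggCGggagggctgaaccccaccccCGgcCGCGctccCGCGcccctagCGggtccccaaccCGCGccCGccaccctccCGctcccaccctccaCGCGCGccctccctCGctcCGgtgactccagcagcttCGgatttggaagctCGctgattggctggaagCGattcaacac
Pcdh19: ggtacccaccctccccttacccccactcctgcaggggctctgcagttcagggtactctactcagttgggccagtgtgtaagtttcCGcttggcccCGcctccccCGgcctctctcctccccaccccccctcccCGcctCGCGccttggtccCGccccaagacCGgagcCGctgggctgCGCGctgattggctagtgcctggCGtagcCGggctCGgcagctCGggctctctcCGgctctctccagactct
Pcdh15: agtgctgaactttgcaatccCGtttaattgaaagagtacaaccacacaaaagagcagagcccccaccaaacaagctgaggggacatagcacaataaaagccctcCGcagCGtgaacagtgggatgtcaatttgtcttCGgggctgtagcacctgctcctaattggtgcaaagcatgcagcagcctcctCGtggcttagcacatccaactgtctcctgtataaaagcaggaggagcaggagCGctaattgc
The Pcdh18 stretch is chr3:49757326-49757566 on the minus strand and holds 22 CpG in 241 bases. The Pcdh19 stretch is chrX:133688994-133689243 on the minus strand, with 16 CpG in 250 bases. The Pcdh15 stretch is chr10:73821617-73821866 on the plus strand, upstream of a RefSeq start that lies inside the longer GENCODE gene, and holds 6 CpG in 250 bases. The median over 32851 promoter windows in RefSeq was 6 CpG in the 250 bases upstream (quartiles 2 and 16). Pcdh18 and Pcdh19 both have CpG-rich upstream stretches, and Pcdh15 is at the median.

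Pcdh18 (ENSMUSG00000037892, chr3:49743296-49757325, minus strand), a delta-2 protocadherin that binds the adaptor Dab1, had 2101 and 1967 counts in the IR libraries, against 1126 and 1219 in the nonIR libraries. Both IR libraries lay far above both nonIR libraries. The means were 72.3 ± 2.49 CPM in IR and 41.4 ± 0.552 CPM in nonIR cells (SD, n = 2 each), and the log2 fold change was 0.81 (SE 0.06, edgeR adjusted p = 4.92e-35), that is 1.75-fold higher in IR. Pcdh1 (ENSMUSG00000051375, chr18:38185914-38212053, minus strand), a delta-1 protocadherin of airway epithelium that serves as an entry receptor for some hantaviruses, had 1929 and 1734 counts in the IR libraries, against 1378 and 1420 in the nonIR libraries. On the CPM scale, which takes out library size, its IR libraries were nearly equal and the groups did not overlap. Pcdh1 averaged 65.1 ± 0.367 CPM in IR and 49.4 ± 1.06 CPM in nonIR cells, and the log2 fold change was 0.40 (SE 0.06, edgeR adjusted p = 1.40e-09), that is 1.32-fold higher.

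Pcdh19 (ENSMUSG00000051323, chrX:133582860-133688987, minus strand), a delta-2 protocadherin that works with N-cadherin and whose loss in humans causes an X-linked epilepsy, had 5051 and 4358 counts in the IR libraries, against 6181 and 6514 in the nonIR libraries. Both IR libraries were below both nonIR libraries. It averaged 167 ± 3.90 CPM in IR and 224 ± 1.27 CPM in nonIR cells, and the log2 fold change was -0.42 (SE 0.04, edgeR adjusted p = 4.96e-27), that is 1.34-fold lower. Pcdh19 held 47.4% and 45.3% of all nonclustered protocadherin counts in the IR libraries, and 61.7% and 60.5% in the nonIR libraries. Its partner Cdh2, the gene of N-cadherin, had a log2 fold change of 0.02 (edgeR adjusted p = 0.772). Pcdh7 (ENSMUSG00000029108, chr5:57717967-58133230, plus strand), a delta-1 protocadherin that in human cells binds the phosphatase inhibitor SET, had 1477 and 1456 counts in the IR libraries, against 1329 and 1610 in the nonIR libraries. The groups overlapped, with the 2 nonIR libraries at the lowest and highest counts. Its log2 fold change was 0.01 (SE 0.07, edgeR adjusted p = 0.899).

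Per kilobase of exon not shared with another gene, mean levels in IR cells were 16.0 CPM for Pcdh19, 13.5 for Pcdh18, 7.40 for Pcdh1 and 6.24 for Pcdh7. In nonIR cells the same scale gave 21.5 CPM per kilobase for Pcdh19, 7.71 for Pcdh18, 5.61 for Pcdh1 and 6.18 for Pcdh7. Pcdh19 stood above Pcdh18 in both groups, by far less in IR. Pcdh1 and Pcdh7, next to each other in level, changed places between the groups.

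**Figure D1:**
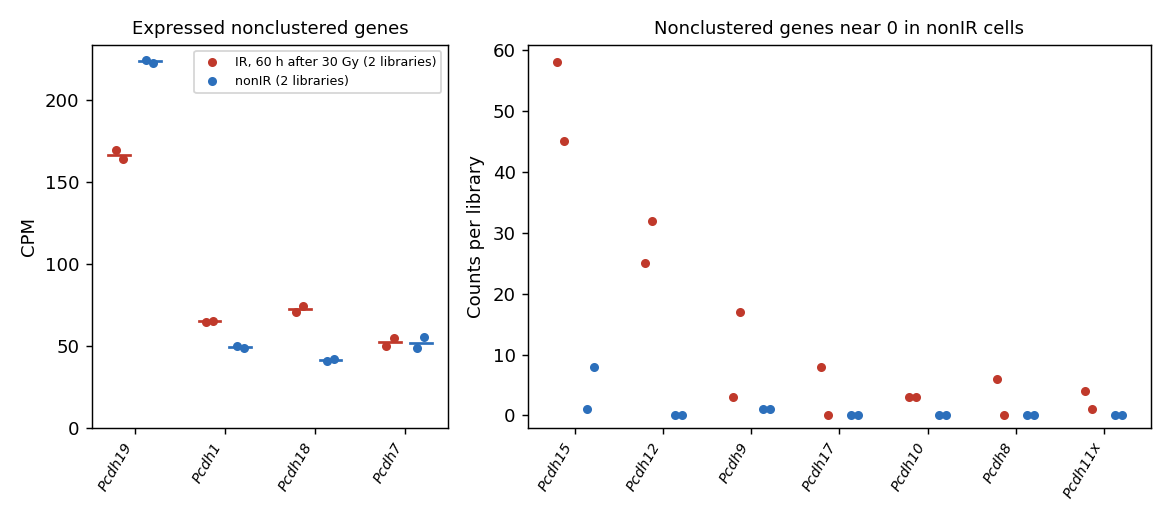
The nonclustered protocadherins in IR (red) and nonIR (blue) libraries, 1 point per library, as CPM with the group mean as a line for the 4 expressed genes (left) and as counts for the 7 genes near 0 in nonIR cells (right). The IR points lie above the nonIR points for Pcdh18, Pcdh1, Pcdh15 and Pcdh12 and below them for Pcdh19, and the groups overlap for Pcdh7.

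The remaining nonclustered genes were close to silent without irradiation. Pcdh15 (ENSMUSG00000052613, chr10:73099342-74649737, plus strand), part of the tip link that opens the transduction channel of inner-ear hair cells, had 58 and 45 counts in the IR libraries, against 1 and 8 in the nonIR libraries. Both IR libraries were well above both nonIR libraries, which differed from each other by far more in proportion. Its log2 fold change was 3.49 (SE 0.63, edgeR adjusted p = 1.10e-07), and it was 5.47 without nonIR replicate 2 and 2.70 without nonIR replicate 1. Cdh23, whose protein forms the other strand of the tip link and which was picked after its values were seen, had 22 and 34 counts in the IR libraries, against 0 and 5 in the nonIR libraries (log2 fold change 3.45, SE 0.81, edgeR adjusted p = 5.33e-05). Like Pcdh15 it passed the filter through its IR libraries alone, so the direction of its call was fixed by its being tested. Of the 1347 genes that passed in this way, 892 were called higher, 0 lower and 455 were not called. Pcdh12 (ENSMUSG00000024440, chr18:38267089-38284402, minus strand), an adhesion protein of endothelial cells and placental trophoblast, had 25 and 32 counts in the IR libraries and 0 in both nonIR libraries. Against a floor of 3 counts over the nonIR group it was at least 19.1-fold higher in IR (edgeR adjusted p = 3.96e-08). For Pcdh12 too, the direction was fixed by its being tested.

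Below that filter were 5 nonclustered genes, for which only counts are given. Pcdh9, a delta-1 gene of the brain, had 3 and 17 counts in the IR libraries and 1 in each nonIR library, which is 10.1 times as many CPM in IR (exact 95% counting interval 2.44 to 88.8). Most of its IR counts came from replicate 2. Pcdh10 had 3 and 3 counts in the IR libraries and Pcdh11x had 4 and 1, and neither had a count in the nonIR libraries. Against the same floor these are at least 2.01-fold and 1.68-fold higher in IR. Pcdh17 and Pcdh8 were each seen in a single IR library, with 8 and 6 counts in replicate 1, and had 0 in both nonIR libraries, at least 2.68-fold and 2.01-fold higher over the group. Pcdh8, Pcdh10 and Pcdh17 are delta-2 genes, and promoters of PCDH10 and PCDH17 are often methylated in human tumours. Intervals and floors cover counting error only.

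Among the 11 nonclustered genes, 7 had both IR libraries above both nonIR libraries, 1 had both below and 3 overlapped, where 33.4% of all genes in the table had both IR libraries above. Low genes in general stood higher in IR. All 11263 genes below the filter summed to 32788 and 30222 counts in the IR libraries and 15618 and 16464 in the nonIR libraries, 1.98 times as many CPM in IR, and 24.9% of them had both IR libraries above both nonIR libraries. The 166 olfactory receptor genes with a row, a family that this tissue should not use, summed to 405 and 289 counts in the IR libraries and 140 and 110 in the nonIR libraries, a ratio of 2.79 (2.41 to 3.24). The 41 vomeronasal and trace amine receptor genes summed to 269 and 223 counts in the IR libraries, against 133 and 172 in the nonIR libraries, a ratio of 1.62 (1.40 to 1.88). The part of this general shift in the counts of the low nonclustered genes was not tested.

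The clustered genes were lower in IR cells or were not called. Of the 35 with a row, 18 could be tested, 6 of which fell, 0 rose and 12 were not called. Over all genes tested, 30.3% fell and 30.4% rose, so the share that fell here was near that over all genes. With upper-quartile scaling, with no filter, with a replicate block or with DESeq2, 3 fell in place of 6. All 6 passed the filter through both groups, whereas Pcdhb18 and Pcdhga1 passed through the nonIR libraries alone. The clustered genes span chr18:36930184-37841873 (GRCm38), and Pcdh1 and Pcdh12, which are nonclustered, lie 344 kb and 425 kb beyond the end of the cluster. Leaving out Pcdhgc3, the tested clustered genes had means of 0.440 to 9.99 CPM. In that range of levels, set after theirs were seen, 10.4% of 5017 genes were called lower and 31.2% higher, 41.6% in all. At an unadjusted p under 0.05, 0 of the 18 were higher with edgeR or with DESeq2, and 7 were lower with edgeR and 5 with DESeq2. The median log2 fold change of the 18 was -0.48, with 15 below 0 and 3 above, against a median of 0.01 over all genes tested and of 0.30 over the genes in the same range, some of which passed the filter through 1 group alone. Counted over all 35 genes, 16 had both IR libraries below both nonIR libraries, 0 had both above and 19 overlapped, where 24.7% of all genes in the table had both below.

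Beta genes carried most of the calls. Of 8 tested, 5 fell and 3 were not called, where 30.3% of all genes tested fell. The median log2 fold change of the 8 was -0.99. Pcdhb22 (ENSMUSG00000073591, chr18:37517871-37524479), the last gene of the array and its highest, had 153 and 110 counts in the IR libraries, against 240 and 279 in the nonIR libraries. Both IR libraries were below both nonIR libraries. Its means were 4.64 ± 0.704 CPM in IR and 9.15 ± 0.582 CPM in nonIR cells, and the log2 fold change was -0.97 (SE 0.19, edgeR adjusted p = 7.95e-07), that is 1.96-fold lower. Pcdhb21 (ENSMUSG00000044022, chr18:37513621-37518325), just upstream, had 54 and 21 counts in the IR libraries, against 88 and 146 in the nonIR libraries. The libraries of each group differed widely, yet the groups did not overlap. It averaged 1.30 ± 0.723 CPM in IR and 4.10 ± 1.27 CPM in nonIR cells, 3.11-fold lower (log2 fold change -1.64, SE 0.31, edgeR adjusted p = 4.19e-07). Without IR replicate 1 the log2 fold change was -2.38, without nonIR replicate 1 it was -1.94, without IR replicate 2 it was -1.18 and without nonIR replicate 2 it was -1.29. The annotated exons of Pcdhb21 and Pcdhb22 overlap on the same strand, so how reads in the overlap were counted bears on both.

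Pcdhb16 had 51 and 69 counts in the IR libraries, against 86 and 105 in the nonIR libraries (log2 fold change -0.65, SE 0.30, edgeR adjusted p = 0.0478). Pcdhb5 had 26 and 22 counts in the IR libraries, against 64 and 33 in the nonIR libraries (log2 fold change -1.01, SE 0.45, edgeR adjusted p = 0.0424). Pcdhb19 had 22 and 11 counts in the IR libraries, against 41 and 34 in the nonIR libraries (log2 fold change -1.19, SE 0.54, edgeR adjusted p = 0.0477). All 3 were separated between the groups and lay just inside the threshold. Left-out libraries moved these calls in edgeR's quasi-likelihood test. Pcdhb5 lost its call without IR replicate 1 (log2 fold change -1.06, adjusted p = 0.107), without IR replicate 2 (-0.99, adjusted p = 0.138) and without nonIR replicate 1 (-0.42, adjusted p = 0.585). Pcdhb16 lost it without IR replicate 1 (-0.38, adjusted p = 0.387), nonIR replicate 1 (-0.76, adjusted p = 0.0509) or nonIR replicate 2 (-0.55, adjusted p = 0.191). Pcdhb19 lost it without IR replicate 2 (-0.85, adjusted p = 0.285), nonIR replicate 1 (-1.01, adjusted p = 0.202) or nonIR replicate 2 (-1.36, adjusted p = 0.0592). All 3 also lost it under the 4 settings that left 3 clustered genes called.

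Just outside the threshold, Pcdhb18 had 15 and 7 counts in the IR libraries, against 20 and 36 in the nonIR libraries (log2 fold change -1.33, edgeR adjusted p = 0.0527, and 0.0424 without nonIR replicate 1). Pcdhb17 had 65 and 73 counts in the IR libraries, against 84 and 93 in the nonIR libraries (log2 fold change -0.34, edgeR adjusted p = 0.316). Pcdhb20 had 22 and 14 counts in the IR libraries, against 26 and 31 in the nonIR libraries (log2 fold change -0.66, edgeR adjusted p = 0.325). In these 3 genes too both IR libraries were below both nonIR libraries. The other 8 beta genes, which were below the filter, held at most 10 counts in any library. All 16 beta genes summed to 423 and 350 counts in the IR libraries, against 671 and 786 in the nonIR libraries. The sums were 13.7 ± 0.725 CPM in IR and 25.7 ± 1.77 CPM in nonIR cells, a ratio of 0.534 (exact 95% counting interval 0.489 to 0.583). Split by place, Pcdhb14 to Pcdhb22 held 92.7% and 89.4% of beta counts in the IR libraries and 89.7% and 93.8% in the nonIR libraries. Their summed ratio was 0.530 (0.483 to 0.581). The 7 earlier beta genes gave 0.580 (0.424 to 0.788), which rests on Pcdhb5: the other 6 held 20 counts over both IR libraries and 21 over both nonIR libraries, a ratio of 0.958 (0.493 to 1.86).

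**Figure D2:**
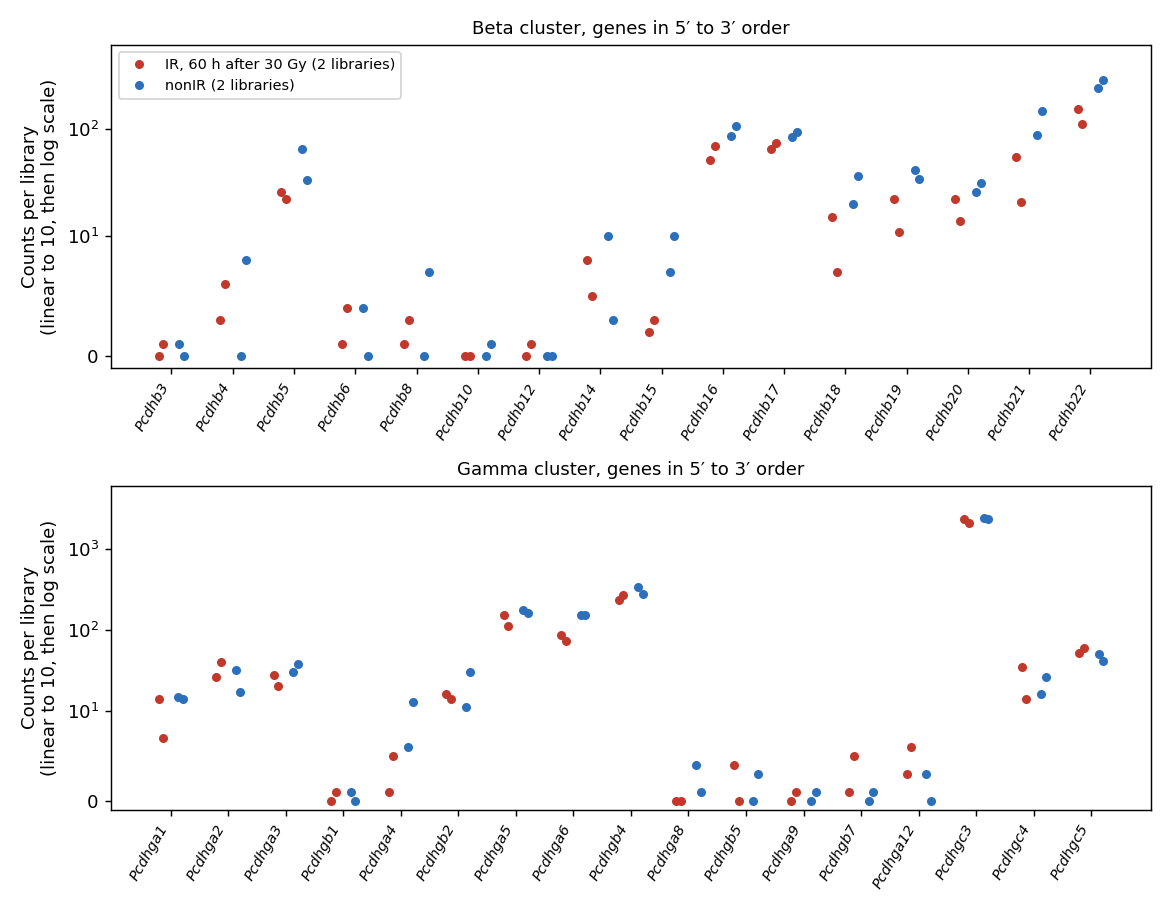
Counts per library of the 16 beta (top) and 17 gamma (bottom) protocadherins with a row, in 5′ to 3′ order, IR (red) beside nonIR (blue), on an axis that is linear up to 10 counts and logarithmic above. Pcdhgc3 has 2121 to 2399 counts per library, and the IR points of Pcdhb21, Pcdhb22 and Pcdhga6 lie below their nonIR points.

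Of 10 gamma genes tested, 1 fell and 9 were not called, where 30.3% of all genes tested fell. The median log2 fold change of the 10 was -0.31. The gene that fell was Pcdhga6 (ENSMUSG00000103793, chr18:37707039-37841873), with 86 and 72 counts in the IR libraries, against 151 and 154 in the nonIR libraries. The libraries of each group were close together and far from the other group. It averaged 2.80 ± 0.125 CPM in IR and 5.38 ± 0.155 CPM in nonIR cells, and the log2 fold change was -0.94 (SE 0.25, edgeR adjusted p = 0.000303), that is 1.92-fold lower. Pcdhga5, its neighbour in the A type, had 153 and 113 counts in the IR libraries, against 176 and 163 in the nonIR libraries (log2 fold change -0.35, edgeR adjusted p = 0.142). Pcdhgb4, the highest of the B type, had 234 and 272 counts in the IR libraries, against 336 and 281 in the nonIR libraries (log2 fold change -0.27, edgeR adjusted p = 0.113, and 0.0160 without IR replicate 2 or 0.0310 without nonIR replicate 2). On the CPM scale both IR libraries were below both nonIR libraries for Pcdhga5, and the groups overlapped for Pcdhgb4.

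Pcdhga1 had 14 and 7 counts in the IR libraries and 15 and 14 in the nonIR libraries (edgeR adjusted p = 0.596). Pcdhga2 had 26 and 40 counts in the IR libraries and 32 and 17 in the nonIR libraries (log2 fold change 0.44, edgeR adjusted p = 0.470). Pcdhga3 had 28 and 20 counts in the IR libraries and 30 and 38 in the nonIR libraries (edgeR adjusted p = 0.414). At these depths a modest change could not be told from none. Pcdhgb2 had 16 and 14 counts in the IR libraries and 11 and 30 in the nonIR libraries (edgeR adjusted p = 0.577). Gamma A genes summed to 311 and 264 counts in the IR libraries, against 417 and 401 in the nonIR libraries, a ratio of 0.707 (0.635 to 0.788). Gamma B genes summed to 255 and 292 counts in the IR libraries, against 348 and 315 in the nonIR libraries, a ratio of 0.830 (0.740 to 0.931). On the CPM scale the groups overlapped for the gamma B sum, since IR replicate 2 lay above nonIR replicate 2.

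The C-type genes are set apart in the gamma array because neurons express them without the random choice that governs the A and B types. Pcdhgc3 (ENSMUSG00000102918, chr18:37806364-37841873), whose protein binds the Wnt pathway inhibitor Axin1 in neurons, was the main clustered protocadherin of these cells. It had 2361 and 2121 counts in the IR libraries, against 2399 and 2376 in the nonIR libraries. Its means of 79.6 ± 0.414 CPM in IR and 84.3 ± 4.18 CPM in nonIR cells were close, and the log2 fold change was -0.08 (SE 0.05, edgeR adjusted p = 0.179, and 0.0498 without nonIR replicate 2). Pcdhgc4, which neurons need to survive, had 35 and 14 counts in the IR libraries and 16 and 26 in the nonIR libraries (log2 fold change 0.22, edgeR adjusted p = 0.765). Pcdhgc5 had 52 and 60 counts in the IR libraries and 50 and 41 in the nonIR libraries (log2 fold change 0.31, edgeR adjusted p = 0.489). None of the 3 was called, whereas 6 of the 15 tested beta, gamma A and gamma B genes fell. Of those 15, 14 had a negative log2 fold change. Over all genes tested, 60.7% were called and 30.3% fell. The difference between the types was not tested.

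Pcdhgc3 made up 68.7% and 68.3% of clustered counts in the IR libraries, against 61.5% and 60.2% in the nonIR libraries, and the beta array 12.3% and 11.3%, against 17.2% and 19.9%. The gamma sum was 102 ± 1.68 CPM in IR and 113 ± 6.60 CPM in nonIR cells, a ratio of 0.908 (0.876 to 0.941), and 0.800 (0.743 to 0.861) without Pcdhgc3. The whole clustered family summed to 3437 and 3107 counts in the IR libraries, against 3901 and 3945 in the nonIR libraries, a ratio of 0.839. Without Pcdhgc3 the sums were 1076 and 986 counts in the IR libraries, against 1502 and 1569 in the nonIR libraries, and the ratio was 0.676 (0.639 to 0.715). Per kilobase of exon not shared with another gene, Pcdhgc3 stood at 43.7 CPM in IR and 46.3 CPM in nonIR cells. On that scale it was above every other protocadherin named here. The next clustered genes were Pcdhgb4 at 2.52 CPM per kilobase in IR and 3.05 in nonIR, and Pcdhga5 at 1.85 in IR and 2.36 in nonIR cells. This scale takes reads in shared exons as left out of the counts, which is not known. Only 1821 of the 5499 exon bases of Pcdhgc3 are its own. If reads in its shared exons were counted, its level is overstated and its rank above Pcdh19 is uncertain.

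The alpha array was silent at this depth in the 2 genes with a row. Pcdha1 and Pcdha3 each had 0 and 3 counts in the IR libraries and 0 in both nonIR libraries, which is at the floor, so no fold is given. The 17 clustered genes below the filter were not clearly higher or lower in sum, whereas low genes at large were higher in IR. They summed to 24 and 47 counts in the IR libraries and 36 and 48 in the nonIR libraries. The ratio was 0.851 (0.611 to 1.18), where that over all genes below the filter was 1.98. On the CPM scale the groups overlapped, at 0.806 and 1.77 CPM in the IR libraries and 1.31 and 1.64 CPM in the nonIR libraries. Of these 17 genes 3 had both IR libraries below both nonIR libraries, against 5.74% of all genes below the filter, and 14 overlapped. The nonclustered genes below the filter summed to 24 and 21 counts in the IR libraries and 1 and 1 in the nonIR libraries, a ratio of 22.6 (5.91 to 193).

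**Figure D3:**
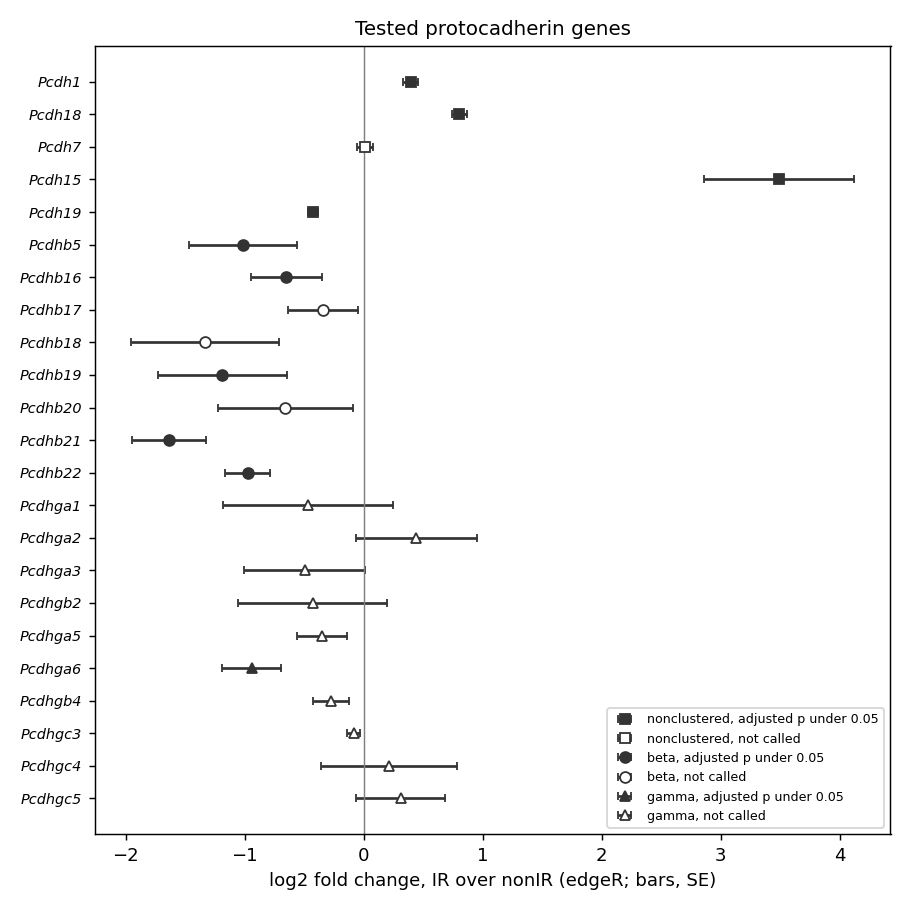
Log2 fold change (IR over nonIR) with its standard error for the tested protocadherins except Pcdh12, whose nonIR libraries are at 0; filled symbols passed an adjusted p of 0.05. All 8 beta genes lie below 0, 1 of 10 gamma genes is filled, and nonclustered genes lie on both sides.

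**Figure D4:**
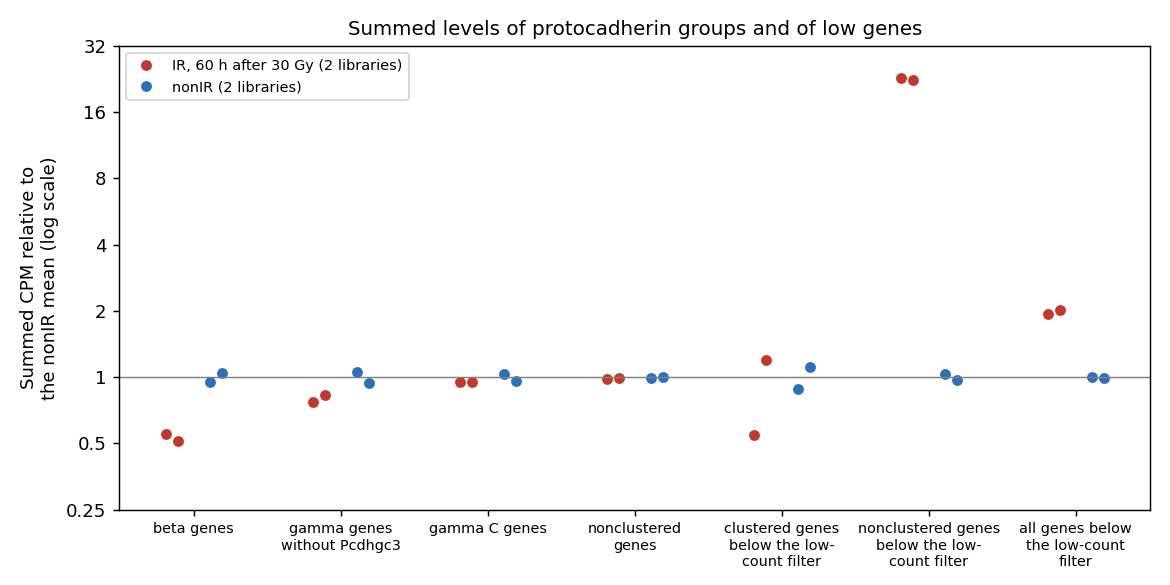
Summed CPM of gene groups in each IR (red) and nonIR (blue) library, relative to the mean of the nonIR libraries, on a log axis. The beta sum in IR is 0.534 times that in nonIR cells, the nonclustered sum 0.982 times, and that of all genes below the filter 1.98 times; the nonclustered genes below the filter have 1 count in each nonIR library.

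How reads are assigned matters for the clustered genes. Of the exon length of a gamma gene 33.1% to 68.5% is its own, since the constant exons belong to the whole array, and the share is 36.5% to 100% for beta genes and 78.9% to 100% for nonclustered genes. Of the 50-base windows of a gene, a median of 50.5% in gamma, 4.48% in beta and 0% in nonclustered genes also occur in another gene. Counts of a gamma gene may therefore leave out its constant exons or hold reads from them. Levels of single gamma and beta genes are uncertain to that extent. An antisense gene overlaps Pcdhgc3 with 23 and 5 counts in the IR libraries and 20 and 31 in the nonIR libraries, far under the counts of Pcdhgc3.

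The 11 tested genes for factors of protocadherin promoter loops cover CTCF, cohesin and proteins that load or release cohesin. Of these, 6 fell, 2 rose and 3 were not called, where 30.3% of all genes tested fell and 30.4% rose. The median log2 fold change of the 11 was -0.12, against 0.01 over all genes tested. Pds5a (log2 fold change -0.64) and Pds5b (-0.28), which fell, encode factors of cohesin release, which limits loops. Ctcf, which encodes the DNA-binding anchor of the loops, had 2241 and 2221 counts in the IR libraries, against 4298 and 4650 in the nonIR libraries. It fell to 79.5 ± 5.93 CPM in IR, against 158 ± 2.04 CPM in nonIR cells (log2 fold change -0.99, SE 0.05, edgeR adjusted p = 4.41e-91). Stag1, a cohesin subunit, fell to 61.7 ± 3.47 CPM in IR, against 152 ± 8.07 CPM in nonIR cells (log2 fold change -1.30, edgeR adjusted p = 5.41e-139). Of the cohesin ring genes, Rad21 fell with a log2 fold change of -0.12 (edgeR adjusted p = 3.22e-05) and Smc3 with -0.36 (edgeR adjusted p = 3.03e-25, named after its values were seen), while Smc1a had 0.03 (edgeR adjusted p = 0.432). The relation of these levels to the clustered genes was not tested.

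Of 15 tested genes whose products add, read or remove DNA methylation or set repressive chromatin, 6 fell, 3 rose and 6 were not called. Their median log2 fold change was -0.12, and the share called was near the 60.7% over all genes tested. The list holds both silencers and Tet1, Tet2 and Tet3, whose products act against DNA methylation, so its counts mix opposite activities. Tet1, which rose, passed the filter through the IR libraries alone, so its direction was fixed by being tested. Dnmt1, the maintenance methyltransferase, fell to 463 ± 16.4 CPM in IR, against 620 ± 5.60 CPM in nonIR cells (log2 fold change -0.42, edgeR adjusted p = 9.52e-47), and its partner Uhrf1 had a log2 fold change of -0.00 (edgeR adjusted p = 0.926). Setdb1, a histone H3 methyltransferase, rose by a log2 fold change of 0.50 (edgeR adjusted p = 3.90e-27), and Wiz, a zinc-finger partner of such enzymes, fell with -0.48 (edgeR adjusted p = 9.54e-20). Of 21 tested partners and processing enzymes of protocadherins, 7 rose, 9 fell and 5 were not called, against 30.4% rising and 30.3% falling over all genes tested. Adam10, the sheddase that cuts their extracellular part, rose to 170 ± 1.28 CPM in IR, against 127 ± 5.47 CPM in nonIR cells (log2 fold change 0.42, edgeR adjusted p = 1.31e-21). Ptk2, the focal adhesion kinase that clustered protocadherins bind and inhibit, fell to 101 ± 6.42 CPM in IR, against 150 ± 3.34 CPM in nonIR cells (log2 fold change -0.57, edgeR adjusted p = 1.26e-32). Neither list leaned clearly one way.

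Genes next to the cluster did not share one direction, though more fell than rose. Of 24 tested genes within 500 kb that are not protocadherins, 5 rose, 11 fell and 8 were not called (median log2 fold change -0.13). Over all genes tested, 30.4% rose and 30.3% fell, 60.7% called in all. Diaph1, an actin nucleator whose gene lies 1.73 kb from the cluster, fell (log2 fold change -0.49, edgeR adjusted p = 6.55e-24), while Gnpda1, a glucosamine-6-phosphate deaminase gene, rose (log2 fold change 1.62, edgeR adjusted p = 4.21e-98). Taf7, a general transcription factor gene that lies between the beta and gamma arrays, had a log2 fold change of 0.06 (edgeR adjusted p = 0.812).

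Other members of the cadherin superfamily were compared from a list of 49 genes, 19 of which could be tested. Of these, 6 passed the filter through the IR libraries alone and were all called higher, a direction fixed by the filter. Of the 13 that passed through both groups, 5 rose, 2 fell and 6 were not called, where 30.4% of all genes tested rose and 30.3% fell. The risers included Cdh1 (log2 fold change 0.99, edgeR adjusted p = 2.38e-48) and Fat2, a large atypical cadherin with 275 and 182 counts in the IR libraries, against 69 and 58 in the nonIR libraries (log2 fold change 1.84, edgeR adjusted p = 2.31e-15). Cdh13, an adhesion receptor anchored in the membrane by a lipid, fell to 161 ± 2.83 CPM in IR, against 264 ± 7.37 CPM in nonIR cells (log2 fold change -0.72, edgeR adjusted p = 5.66e-78).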

How the data were processed

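The authors deposited raw counts by Ensembl gene for each of the 4 libraries. HISAT2, HISAT, HTSeq, DESeq2 and mm10 are named in the submitters' processing notes, without versions or roles. The sources used here give no annotation release, strand setting or rule for reads that match more than 1 place, so reads in shared exons may be dropped or divided. Symbols and exons come from GENCODE M21, and 189 genes had no symbol. The description of nonIR replicate 2 carries the other nonIR sample's number; its title was followed.

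The fit was glmQLFit (robust) and glmQLFTest of edgeR 4.0.16 (R 4.3.3), after filterByExpr and TMM scaling and without covariates. The filter kept genes with about 10 counts in at least 2 of the 4 libraries, of either group. Benjamini-Hochberg adjustment was over 15298 genes. CPM and log2 fold changes were computed here from the deposited counts. Standard errors are the log2 fold change over the square root of F. For 90.0% of genes the spread came wholly from the trend fitted over all genes. Among the tested protocadherins this held for all but Pcdh7, Pcdhb21 and Pcdhgb4. Replicates differed by more than sampling noise (mean chi-square per gene 4.73 in IR, 3.38 in nonIR) and were kept apart. Sums over members have no p; ratios have exact Clopper-Pearson 95% intervals (scipy 1.17.1). Members and lists were chosen with earlier results of these data known. Named were all nonclustered genes, tested clustered genes, the 3 highest genes of each array, and from each other list the 2 highest and the 2 most changed called genes of at least 1 CPM; of these, those that bear on the protocadherins are printed. Tested on simulated counts, with 50 planted genes of 0.5 to 20 CPM at each fold, the fit found 30 of those changed 1.5-fold. It found 39 for a 2-fold change, 46 for a 3-fold and 47 for a 4-fold change, and called 14 unchanged genes among 15159 tested. In the simulation only the planted genes changed and all genes shared 1 spread, whereas 60.7% of genes were called in the data. The simulated counts therefore need not hold for these libraries. Alternatives were other scalings, no filter, a replicate block, non-robust estimation, DESeq2 1.42.0 and leaving out each library.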

Additional observations from a re-analysis of the deposited data

How the results depend on the processing

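The count of 6 clustered genes called lower was 3 with upper-quartile factors, 3 with no filter, 3 with a replicate block and 3 with DESeq2, 6 with RLE factors and with non-robust estimation, and 4 to 6 when a library was left out. Pcdhb21, Pcdhb22 and Pcdhga6 were called lower in all 10 alternatives, and Pcdhb5, Pcdhb16 and Pcdhb19 lost the call in 7 of 10 each. The labels pair no libraries, and same-numbered libraries did not deviate together (r = -0.02 over 10418 genes, not independent points). The 4 nonclustered genes called higher and the 1 called lower kept their calls in all 10. Without IR replicate 1, Pcdh9 entered the test with a log2 fold change of 4.01, which rests on the 17 counts of IR replicate 2. It passed the filter through that library alone, so its direction was fixed by being tested. With column totals in place of TMM the summed ratio was 1.02 for nonclustered genes (0.982 with TMM), 0.874 for clustered genes and 2.06 for all genes below the filter. Nonclustered genes without Pcdh19 gave 1.35, gamma genes without Pcdhgc3 0.800 and clustered genes without Pcdhgc3 0.676. The beta ratio ranged from 0.510 to 0.562. The sign of the log2 fold change turned for Pcdh7 without a filter (-0.0097), and with a library left out it ranged from -0.095 to 0.10 for Pcdh7, from -0.0027 to 1.00 for Pcdhga2, from -0.96 to 0.40 for Pcdhgb2 and from -0.49 to 0.66 for Pcdhgc4. The cause of these changes was not tested. Of 240 single-gene values under an alternative, 208 kept direction and call, 21 lost a call, 4 gained one and 7 turned sign. Scaling moved the median of all genes by at most 0.07 on the log2 scale.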
